A study of Homo sapiens with 8 samples.

Results

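The RNA pool held by eIF3d in cells kept without glucose was set against the pool held by eIF3d in cells in complete medium. The comparison used the 4 immunoprecipitate (IP) libraries of a series of 8 libraries, 2 from glucose-free medium and 2 from complete medium, and the genes with a mean of at least 1 RPKM over these 4 libraries. RPKM counts reads per length of exon and per total reads of the library, so every level is relative to the other RNA of its own library, and fewer cells with an RNA cannot be told apart from less RNA per cell. Of 57978 genes listed for both media, 11729 met that minimum, and 9576 of these were nuclear protein-coding genes.

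Both groups were HEK293T cells, a human embryonic kidney line carrying the SV40 large T antigen, and both expressed eIF3d-TEV, a version of eIF3d with a site for TEV protease that was captured through an HA tag. The glucose-free group spent 48 h in DMEM without glucose and with 10% dialyzed serum. The complete group spent 48 h in DMEM with 10% serum. Light of 254 nm crosslinked RNA to protein, anti-HA beads took up eIF3d, and TEV protease released it from the eIF3 complex. Dialysis of the serum therefore differs between the groups together with glucose. The sources used here do not say whether the line is 1 clone, how eIF3d-TEV was expressed or whether untagged eIF3d remained, and no IP from untagged cells was analysed here.

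eIF3 is the large initiation factor that brings the small ribosomal subunit to mRNA. Its eIF3d subunit can itself hold the 5′ cap of some mRNAs, in place of the usual cap binder eIF4E. When nutrients run short, mTORC1 activity falls, eIF4E is sequestered by 4E-BPs, and mRNAs that begin with a terminal oligopyrimidine (TOP) stretch, which encode ribosomal proteins and elongation factors, are bound by LARP1 and leave polysomes. The design asks which mRNAs eIF3d holds in the fed and in the glucose-deprived state.

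The IP libraries held 8656921 and 12034186 reads without glucose and 24596456 and 21216047 reads in complete medium, as recovered from the RPKM. Replicates carry a number in the labels and no word on separate cultures, so p-values speak only of library-to-library spread, possibly technical. The glucose-free replicates were closer to each other (r = 0.988 across tested genes, median absolute difference 0.111 on the log2 scale) than the complete replicates (r = 0.906, median absolute difference 0.31). Libraries of different media correlated at 0.719 to 0.766. Complete replicate 2 stood apart by its mitochondrial RNA, described with the shares of the pool. Markers of HEK293T cells were detected in all 4 libraries, at levels that differed between media in both directions. VIM had 25.02 and 30.37 RPKM without glucose and 4.36 and 4.66 RPKM in complete medium. NEFM had 17.46 and 15.65 RPKM without glucose and 28.31 and 32.77 RPKM in complete medium. NEFL and PAX2 were also lower without glucose, and KRT18 overlapped between media. KRT8 was higher without glucose and lowest in complete replicate 2, at 0.767 RPKM. Of 25 markers of blood, liver, pancreas, endothelium, muscle, brain, lung and kidney cells, 1 to 3 per library reached 1 RPKM, and the highest value was 2.69 RPKM.

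After the libraries were scaled to a common median, 2132 genes were higher in the glucose-free IP (18.2% of those tested) and 1899 were lower (16.2%) by limma at a Benjamini-Hochberg adjusted p under 0.05. Nuclear protein-coding genes made up 1502 of the higher and 1648 of the lower calls. A log2 difference of at least 2 was reached by 496 of the higher and 196 of the lower genes, and one of at least 3 by 152 and 42. On RPKM as deposited, before scaling, the glucose-free values lay wholly above the complete values in 5420 genes (46.2%) and wholly below in 3066 (26.1%). After scaling these counts were 4381 (37.4%) and 4290 (36.6%). The minimum of 1 RPKM was met only through the glucose-free mean by 1116 genes and only through the complete mean by 696, so these genes could scarcely have been called the other way. The counts rested on the close glucose-free pair. Without glucose-free replicate 1 there were 328 higher and 48 lower calls, and without glucose-free replicate 2 there were 358 and 38, since the spread then comes from the complete pair alone. Without complete replicate 1 the counts were 3960 and 3821, and without complete replicate 2 they were 3627 and 3511. All 4 of these fits called 308 genes higher (2.63%) and 28 lower (0.239%). With RPKM left as deposited, where the median difference of all genes was 0.27, the calls were 3251 higher and 1318 lower, so that 71.15% of calls were higher in place of 52.89%.

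Of the gene lists examined, ribosomal proteins and histones had the largest shifts in their share of the mRNA pool. Cytosolic ribosomal protein mRNAs made up 14.1% and 13.7% of the summed RPKM of nuclear protein-coding genes in the glucose-free libraries, against 3.74% and 3.81% in the complete libraries. Replication-dependent histone genes made up 1.01% and 0.788% in the glucose-free libraries, against 9.15% and 5.96% in the complete libraries. The ranges of the media did not overlap for either group. Chromatin modifiers took 0.627% and 0.612% without glucose and 1.63% and 2.13% in complete medium, and the splicing factors of the hnRNP and SR families took 0.842% and 0.855% against 1.37% and 1.90%. For such a share, the smallest two-sided p that an exact permutation test over these 4 libraries allows is 0.333.

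**Figure D1:**
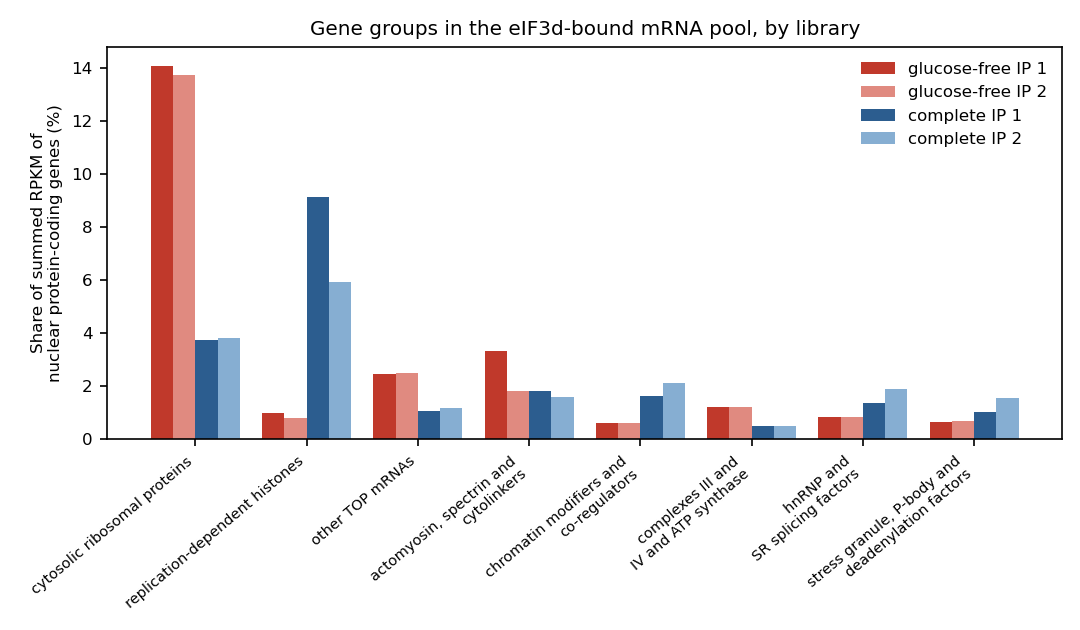
Share of the summed RPKM of nuclear protein-coding genes (vertical axis, percent) taken by 8 gene groups, with 1 bar per IP library. Ribosomal protein mRNAs stand near 14% in both glucose-free libraries and under 4% in both complete libraries, and histones show the opposite order.

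The leading genes of the pool changed places as well. The most abundant 100 coding genes of the glucose-free mean and of the complete mean had 39 in common, and the most abundant 500 had 277. In the glucose-free libraries 607 and 610 coding genes held 50% of the coding RPKM, against 791 and 745 in the complete libraries. Counted on recovered reads, without division by length, these numbers were 787 and 837 against 809 and 745, and the media overlapped. Over all genes, most of the RPKM fell on the cytosolic rRNA regions in both media, at 71.2% and 62.5% without glucose and 74.9% and 53.9% in complete medium. Nuclear coding genes took 21.01% and 28.03% without glucose and 17.9% and 17.7% in complete medium. Mitochondrial rRNA took 0.773% and 0.573% without glucose, against 1.90% and 15.4% in complete medium, and mitochondrial mRNA took 0.773% and 0.948% against 0.988% and 8.37%. The high mitochondrial shares came from complete replicate 2 alone.

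Messages for ribosomal proteins were higher without glucose almost as a class. Of 81 tested ribosomal protein genes of both subunits, 69 rose and 0 fell (background 18.2% and 16.2%), with a median log2 difference of 2.07, against -0.0028 over all tested genes. The large subunit had 40 of 49 higher and a median of 1.85, and the small subunit had 29 of 32 higher and a median of 2.20. The glucose-free values lay wholly above the complete values in all 81 genes as deposited and in 78 after scaling, against 46.2% and 37.4% of all tested genes. The calls dropped to 14 and 17 without glucose-free replicate 1 or 2, and without complete replicate 1 or 2 they were 75 and 80, while the median stayed between 1.96 and 2.11.

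RPS12, a protein of the small subunit, had 882 and 821 RPKM without glucose, against 39.9 and 52.4 RPKM in complete medium. The log2 difference was 3.84 ± 0.331 (SE, n = 2 libraries per medium), with a limma adjusted p of 0.00425. RPS13, also of the small subunit, had 148 and 141 RPKM without glucose and 4.69 and 3.32 RPKM in complete medium (log2 difference 4.56 ± 0.257, limma adjusted p = 0.00282). Every glucose-free value of these genes was more than 10 times every complete value, and both passed in all 4 fits that left out a library. RPL21 of the large subunit had 137 and 130 RPKM against 4.19 and 11.6 RPKM (log2 difference 3.73), and RPS27A, which carries a ubiquitin moiety fused to a small subunit protein, had 180 and 171 RPKM against 7.26 and 8.49 RPKM (log2 difference 3.99). RPL39 had the largest log2 difference of any coding gene, 4.76 ± 0.962, but its complete replicates were far apart, at 0.855 and 13.1 RPKM, against 178 and 162 RPKM without glucose, and the call was lost without either glucose-free library. In the input RPL39 was higher by 8.72, at means of 2133 RPKM without glucose and 7.85 RPKM in complete medium. Its interaction was negative (-4.51, limma adjusted p = 0.0487), a smaller difference in the IP. RPL39 also lies in a family with many processed copies, and the sources used here do not give how reads with several places in the genome were counted. RPS2 had 1219 and 1624 RPKM without glucose and 313 and 221 RPKM in complete medium (log2 difference 2.07), and RPL3, a core protein of the large subunit, had 637 and 739 RPKM against 118 and 66.7 RPKM (log2 difference 2.59).

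The first 20 bases at the annotated starts of several of these genes are shown because a TOP stretch, a C at the start followed by an unbroken run of pyrimidines, is the feature that LARP1 reads. Capitals mark a C followed by at least 4 pyrimidines. For a gene with several annotated starts, a start with this feature was shown if any had it. The sequences are from RefSeq on GRCh38.p14, read 5′ to 3′ on the gene's strand, at chr6:132814569-132814588 (RPS12, plus strand), chr11:17077648-17077667 (RPS13, minus strand), chr13:27251558-27251577 (RPL21, plus strand), chr19:3985444-3985463 (EEF2, minus strand), chr13:45341164-45341183 (TPT1, minus strand), chr4:674257-674276 (ATP5ME, minus strand), chr4:108650599-108650618 (OSTC, plus strand) and chr22:36387948-36387967 (MYH9, minus strand).
RPS12: CTCTTTCCCTgccgccgccg
RPS13: CCTTTCgttgcctgatcgcc
RPL21: CCTTTCggccggaaccgcca
EEF2: CTCTTCCgccgtcgtcgccg
TPT1: CTTTTCCgcccgctcccccc
ATP5ME: gtgcttccggtgcggaggtc
OSTC: ctgtttccgggaggcgcgtg
MYH9: gcagatcaccgcggttcctg

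A gene counted as having such a start if any of its annotated starts matched. Of the ribosomal protein genes that RefSeq starts could be matched to, 47 of 66 had such a start (71.21%). Among matched coding genes it was 618 of 7700 (8.026%), of 9576 tested. RPL3, named above and not shown here, was among the ribosomal protein genes without it. Outside the ribosomal protein list and the list of other known TOP mRNAs, 120 of 561 genes with this start were higher (21.39%) and 84 were lower (14.97%), with a median log2 difference of 0.23. Genes without it numbered 7061, of which 14.98% were higher and 17.05% lower, with a median of -0.07. OSTC, ATP5ME and MYH9, described with their own groups, were higher without glucose and have no such start in these letters. A match is a description of the annotated start and does not show where transcription began in these cells.

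The other known TOP mRNAs, mostly elongation and initiation factors, had 11 of 18 tested genes higher and 0 lower, with a median of 1.25. EEF2, the translocase of elongation and the gene with the highest glucose-free mean among these, had 1740 and 2170 RPKM without glucose, against 586 and 322 RPKM in complete medium (log2 difference 1.81 ± 0.453, limma adjusted p = 0.0326). TPT1, which encodes the translationally controlled tumour protein, had 32.2 and 32.5 RPKM without glucose and 1.40 and 2.18 RPKM in complete medium (log2 difference 3.31 ± 0.256, limma adjusted p = 0.00383). EEF1A1, the factor that delivers aminoacyl-tRNA, had 315 and 359 RPKM against 90.6 and 132 RPKM (log2 difference 1.26, limma adjusted p = 0.0388). The ranges of the media were separate for all 3 genes, as in 46.2% of all tested genes on RPKM as deposited. PABPC1, the cytoplasmic poly(A) binding protein, ran the other way without passing the test (log2 difference -0.67). Only 2 members kept their call without glucose-free replicate 1, and 2 without glucose-free replicate 2, while 14 and 16 were called without complete replicate 1 or 2.

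Nuclear genes of the respiratory chain were higher too. Among complexes III and IV and ATP synthase, 26 of 36 tested genes rose and 0 fell, with a median log2 difference of 1.61. Among complex I subunits 27 of 34 rose and 0 fell, with a median of 1.29. ATP5ME, the e subunit of ATP synthase, had 119 and 116 RPKM without glucose, against 5.36 and 4.16 RPKM in complete medium (log2 difference 4.05 ± 0.242, limma adjusted p = 0.00282). COX7C, a small subunit of cytochrome c oxidase, had 79.9 and 91.9 RPKM against 6.22 and 3.48 RPKM (log2 difference 3.61), and NDUFAB1, the acyl carrier protein of complex I, had 29.8 and 32.3 RPKM against 3.86 and 1.83 RPKM (log2 difference 2.82). In each of these the lowest glucose-free value was several times the highest complete value. Mitochondrial ribosomal proteins had 39 of 74 higher and 2 lower, with a median of 0.92. MRPL12 was higher by 2.47 on the log2 scale, whereas MRPL4 fell by 1.07. The higher calls in complexes III to V, complex I and the mitochondrial ribosome dropped to 3, 2 and 2 without glucose-free replicate 1, and without glucose-free replicate 2 to 6, 3 and 2. Without complete replicate 1 they were 32, 29 and 54, and without complete replicate 2 they were 32, 29 and 61.

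Other genes of short exon length joined them at the top. OSTC, a subunit of the oligosaccharyltransferase of the endoplasmic reticulum, had 37.1 and 35.97 RPKM without glucose and 1.13 and 0.612 RPKM in complete medium (log2 difference 4.09 ± 0.248, limma adjusted p = 0.00282). SEC61G, the gamma subunit of the Sec61 channel, had 25.2 and 22.8 RPKM against 0.53 and 0.256 RPKM (log2 difference 3.96). TMEM256 had 30.4 and 27.1 RPKM against 0.92 and 0.60 RPKM (log2 difference 3.84). HSPA6, an inducible HSP70, had 22.3 and 29.4 RPKM against 0.377 and 0.835 RPKM (log2 difference 3.83). These 4 genes passed in all 4 fits that left out a library, but their complete means were under 1 RPKM, so all 4 are among the 1116 genes tested only because of their glucose-free level. Proteasome subunits had 14 of 29 higher and 0 lower, with a median of 0.72, led by PSMA4 and PSMA3 of the catalytic core at 2.57 and 2.10. In the input the proteasome median was 0.79, with 13 higher and 0 lower. The interaction was negative for 2 of these genes and positive for 0. Among the 2 was PSMA4 (-1.94, limma adjusted p = 0.0444), which was higher by 3.37 in the input. Neither glucose-free library could be left out without losing every proteasome call, and without complete replicate 1 or 2 there were 18 and 17 higher.

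Transcripts that host small nucleolar RNAs in their introns were also higher, with 18 of 24 tested and 0 lower and a median log2 difference of 2.26. SNHG19 had 62.1 and 65.6 RPKM without glucose, against 3.45 and 0.827 RPKM in complete medium (log2 difference 4.23 ± 0.446, limma adjusted p = 0.00546). SNHG8 had 85.9 and 99.7 RPKM against 2.03 and 5.06 RPKM (log2 difference 4.14), and GAS5, whose RNA begins with a TOP stretch, was higher by 4.08. The glucose-free values were wholly above the complete values in 23 of the 24 genes as deposited and in 22 after scaling, against 46.2% and 37.4% of all tested genes. The list had 7 and 8 calls without glucose-free replicate 1 or 2, and without complete replicate 1 or 2 it had 22 and 21.

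**Figure D2:**
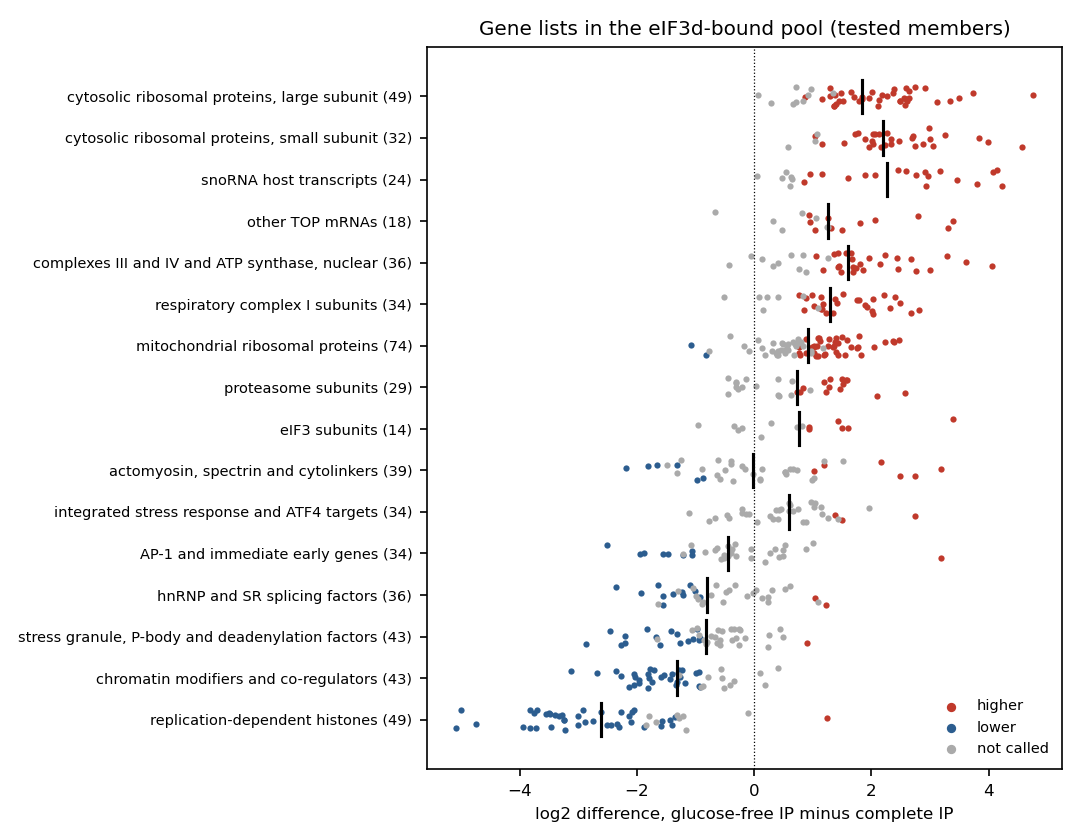
Log2 difference of every tested member of 16 gene lists (horizontal axis, glucose-free IP minus complete IP), with the number of tested members in parentheses, the list's median as a black line, and colour for genes called higher, lower or not called. Ribosomal proteins, snoRNA hosts and respiratory chain lists lie to the right of 0, and histones and chromatin modifiers to the left.

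The most reduced group was the replication-dependent histones, the core and linker histones made in S phase. Of 68 genes in the list 49 were tested, 40 fell and 1 rose, with a median log2 difference of -2.60. The glucose-free values lay wholly below the complete values in 47 genes as deposited and in 48 after scaling, against 26.1% and 36.6% of all tested genes. HIST1H1E, a linker histone at chr6:26156354-26157107 on GRCh38 and among the 8 most abundant coding genes of the complete pool, had 178 and 147 RPKM without glucose, against 1419 and 1086 RPKM in complete medium (log2 difference -3.28 ± 0.374, limma adjusted p = 0.00591). HIST1H1D, another linker histone, had 3.47 and 1.62 RPKM against 85.4 and 92.9 RPKM (log2 difference -5.00 ± 0.348, limma adjusted p = 0.003). HIST1H2BK had 159 and 156 RPKM against 1395 and 994 RPKM (log2 difference -3.24). All 3 were separated by more than 5 times between media. HIST1H2AB (-5.09) and HIST1H4D (-4.74) had the other differences beyond 4. HIST1H4I was the member that rose, to 4.46 and 4.50 RPKM against 1.45 and 0.619 RPKM (log2 difference 1.24), a call that was lost with length and GC trends removed (0.99), and HIST1H3E did not pass (-0.10). Calls numbered 22 and 14 lower without glucose-free replicate 1 or 2, and 47 without either complete library.

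Several measured facts stand beside the histones. Their genes share near-identical coding sequence, so the split of reads among single members is uncertain, and the summed share given above is the firmer value. These mRNAs end in a stem-loop rather than a poly(A) tail, while the labels' protocol names libraries of polyadenylated RNA. Histone variants that carry a poly(A) tail had 3 of 11 genes higher and 0 lower (background 18.2% and 16.2%), with a median of 0.80. H2AFZ had 99.5 and 119 RPKM without glucose against 20.6 and 12.8 RPKM in complete medium (log2 difference 2.33). In the input the replication-dependent list had a median of -0.60, with 16 genes lower and 1 higher. The difference between media was larger in the IP than in the input for 9 of the 49 by the limma interaction (2.2% of all tested genes passed in this direction), among them HIST1H4D with an interaction of -3.80 and an adjusted p of 0.0187. Among 45 genes of DNA replication and the cell cycle 5 rose and 8 fell (median -0.31). Calls either way took 28.9% of this list, against 34.4% of all tested genes. CDT1, a licensing factor, was higher by 2.22, and MKI67, a proliferation marker, had 19.8 and 14.5 RPKM without glucose and 117 and 210 RPKM in complete medium (log2 difference -3.47). Leaving out glucose-free replicate 1 or 2 left this cell cycle list with 1 and 0 calls and the tailed variants with 0, and leaving out complete replicate 1 or 2 gave 12 and 10 cell cycle genes higher and 17 and 20 lower, and 8 and 4 variants higher and 2 and 1 lower.

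Chromatin regulators, genes of long exon length, were lower. Of 43 tested chromatin modifiers and co-regulators 31 fell and 0 rose, with a median log2 difference of -1.32. BCOR, a Polycomb-associated corepressor, had 20.6 and 19.8 RPKM without glucose, against 146 and 145 RPKM in complete medium (log2 difference -3.13 ± 0.249, limma adjusted p = 0.00397). EP300, a histone acetyltransferase, had 14.8 and 16.4 RPKM against 72.1 and 95.1 RPKM (log2 difference -2.68 ± 0.267, limma adjusted p = 0.0052). SPEN, a corepressor of nuclear receptors and Notch, had 84.7 and 98.8 RPKM against 223 and 612 RPKM (log2 difference -2.35). Values did not overlap between media in any of the 3, as in 26.1% of all tested genes on RPKM as deposited, but the complete replicates of SPEN were far apart. When glucose-free replicate 1 or 2 was left out, only 1 gene of the list was called in each fit, and without complete replicate 1 or 2 there were 34 and 38 lower.

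Exon length moved with these results. Across the 9576 coding genes the log2 difference correlated with the log10 exon length at r = -0.402 (Spearman's rho -0.438), as a description across genes that share the same 4 libraries. In the shortest of 5 bins, 312 to 2833 bases of exon, 35.65% of genes were higher and 7.098% lower. In the longest bin, 8033 to 44680 bases, 3.133% were higher and 36.14% lower. With length and GC trends taken out of each library, 11 chromatin modifiers were lower and 3 higher and the list's median was -0.40, against 31 lower, 0 higher and -1.32 before it. The same step left 70 ribosomal protein genes higher and 0 lower with a median of 2.05, 45 histones lower with a median of -3.15, and medians of 1.49 in complexes III to V and 1.15 in complex I. Exon length here covers all annotated exons of a gene over all its transcripts, and is not the length of 1 mRNA. Its median was 3002 bases for ribosomal protein genes. Removing this trend therefore cannot show whether a difference depends on the length of the mRNA. BCOR (-2.40) and EP300 (-1.71) stayed past the threshold, and SPEN (-1.34) did not.

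**Figure D3:**
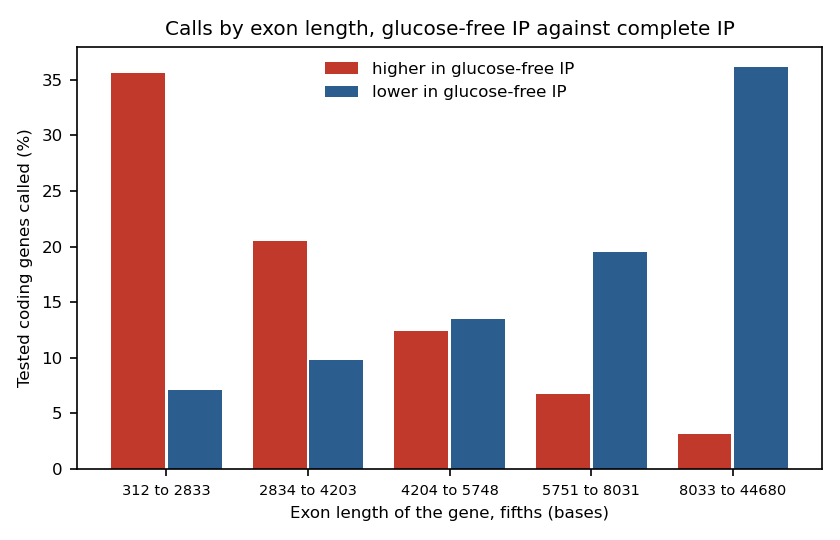
Percent of tested nuclear protein-coding genes called higher or lower in the glucose-free IP (vertical axis) in 5 bins of exon length (horizontal axis, bases). The share called higher is 35.65% in the shortest bin and 3.133% in the longest, and the share called lower is 7.098% and 36.14%.

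Factors of stress granules, P-bodies and deadenylation had 16 of 43 genes lower and 1 higher (background 16.2% and 18.2%), with a median of -0.82. TOB1, an adaptor of the CCR4-NOT deadenylase, had 3.25 and 4.12 RPKM without glucose and 16.8 and 41.3 RPKM in complete medium (log2 difference -2.86, limma adjusted p = 0.0108). TNRC6B, the partner of Argonaute in silencing, was lower by a log2 difference of -2.46, and CNOT8, a deadenylase, was the member that rose (0.91). Splicing factors of the hnRNP and SR families had 11 of 36 lower and 2 higher (background 16.2% and 18.2%). Their median was -0.80, and SRRM2 (-2.36) and HNRNPR (-1.93) led the fall. HNRNPA1 and SRSF9 rose, by 1.04 and 1.22. In the input the median of the splicing factors was 0.37. The stress granule list had 1 and 0 genes lower without glucose-free replicate 1 or 2, and the splicing list 0 and 0, and without complete replicate 1 or 2 they had 33 and 25, and 25 and 17.

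Actin and myosin genes went both ways. Of 39 tested genes of actomyosin, spectrin and cytolinkers 6 rose and 6 fell, and the median was -0.02. Calls either way took 30.8% of this list, no more than the 34.4% of all tested genes. MYH9, the heavy chain of non-muscle myosin IIA at chr22:36281277-36388067 on GRCh38, had 1140 and 410 RPKM without glucose, against 101 and 89.6 RPKM in complete medium (log2 difference 2.48 ± 0.595, limma adjusted p = 0.0291). MYH14, the heavy chain of non-muscle myosin IIC, had 148 and 65.5 RPKM against 10.7 and 5.40 RPKM (log2 difference 3.19 ± 0.535, limma adjusted p = 0.0122). MYL6, a myosin light chain, had 51.7 and 57.9 RPKM against 6.43 and 4.92 RPKM (log2 difference 2.75). The glucose-free values were above the complete values throughout, although glucose-free replicate 1 held over 2 times the MYH9 and MYH14 level of replicate 2. MYH9 lost its call without either glucose-free library, at 1.64 without replicate 1 and 3.33 without replicate 2, and with library weights. MYH14 lost it without glucose-free replicate 1, at 2.50.

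The myosin heavy chains are long genes that ran against the length trend. In the input MYH9 and MYH14 had log2 differences of -0.84 and -0.06 that did not pass the test. Their mean input levels were low, at 1.77 and 0.349 RPKM without glucose and 7.84 and 0.765 RPKM in complete medium. The added 1 RPKM shrinks differences at such levels. The limma interaction passed for MYH14 (3.12, adjusted p = 0.0385), and for MYH9 it missed the threshold (3.42, adjusted p = 0.0529). Over the list 3 genes had a larger difference in the IP than in the input (0.878% of all tested genes passed in this direction). Among the members that fell were MACF1, which ties actin to microtubules, at 8.08 and 4.76 RPKM without glucose and 22.8 and 28.5 RPKM in complete medium (log2 difference -2.19), and VCL, vinculin, at -1.82. With length and GC trends removed both calls were lost (-0.76 and -1.09), and the list had 10 genes higher and 0 lower. Without glucose-free replicate 1 or 2 the list had 1 and 2 higher and 1 and 0 lower, and without complete replicate 1 or 2 it had 13 and 11 higher and 14 and 11 lower.

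Genes with known links to eIF3d and nutrient signalling gave mixed values. JUN, an AP-1 transcription factor and a known mRNA of eIF3d cap binding, had 357 and 521 RPKM without glucose, against 232 and 248 RPKM in complete medium, and did not pass (log2 difference 0.49 ± 0.329, limma adjusted p = 0.281). The ranges were separate, with the glucose-free values above, as in 46.2% of all tested genes on RPKM as deposited. JUND, another AP-1 factor, had 177 and 263 RPKM against 38.4 and 7.97 RPKM and was higher by 3.19 ± 0.684 (limma adjusted p = 0.0219). It was the only riser among 34 AP-1 and immediate early genes, of which 8 fell (background 18.2% higher and 16.2% lower). The list's median was -0.44, and EGR1 (-2.51) and KLF10 (-1.94) led the fall. Neither glucose-free library could be left out without losing all calls of this list, and without complete replicate 1 or 2 it had 8 and 2 higher and 10 and 20 lower.

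ATF4, the transcription factor of the integrated stress response, had 612 and 818 RPKM without glucose and 285 and 282 RPKM in complete medium. It missed the threshold (log2 difference 0.97 ± 0.336, limma adjusted p = 0.0743), with separate ranges, as in 46.2% of all tested genes on RPKM as deposited. The ATF4 target DDIT3, also called CHOP, had 55.2 and 77.8 RPKM against 13.7 and 3.32 RPKM and rose by 2.74 ± 0.574 (limma adjusted p = 0.0205). MTHFD2, of mitochondrial folate metabolism, rose by 1.49, to 29.9 and 29.9 RPKM against 9.73 and 6.17 RPKM. Of 34 genes of this response 3 rose and 0 fell (8.82% called, against 34.4% of all tested genes), and the median was 0.60. That median was 1.26 without complete replicate 1 and -0.07 without complete replicate 2, so its sign rests on complete replicate 2. The list had 22 higher and 3 lower calls without complete replicate 1, 12 and 11 without complete replicate 2, and none without either glucose-free library.

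Components of mTORC1 and mTORC2 had 1 of 14 genes higher and 3 lower, with a median of -0.40. Calls either way took 28.6% of this list and 25% of the AMPK list, against 34.4% of all tested genes. RPTOR, the scaffold of mTORC1, had 9.71 and 12.2 RPKM without glucose, against 36.5 and 29.2 RPKM in complete medium (log2 difference -1.83 ± 0.227, limma adjusted p = 0.00683). MTOR, the kinase, had 8.86 and 6.99 RPKM against 34.1 and 16.4 RPKM (log2 difference -1.80, limma adjusted p = 0.0217). LARP1 had 85.1 and 105 RPKM against 151 and 181 RPKM (log2 difference -1.15, limma adjusted p = 0.0314). These genes were lower with separate ranges, as 26.1% of all tested genes were on RPKM as deposited. In the input RPTOR (-0.93), MTOR (-0.69) and LARP1 (-1.27) were lower as well by limma, and the interaction passed for none of the 3. Input levels of RPTOR were low, at means of 0.299 RPKM without glucose and 2.53 RPKM in complete medium. With length and GC trends removed from the IP libraries, MTOR (-0.85) and LARP1 (-0.43) no longer passed, and RPTOR (-1.27) did. All 3 calls were lost without either glucose-free library, and the mTOR list then had 0. It had 2 and 3 higher and 6 lower in each fit that left out complete replicate 1 or 2. In the AMPK list 2 of 8 rose, STK11, the upstream kinase LKB1, by 1.17 and the subunit gene PRKAG1 by 1.10, and both calls were lost without either glucose-free library.

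Among the eIF3 subunits 6 of 14 rose and 0 fell (background 18.2% and 16.2%), with a median of 0.77. EIF3E rose by 3.38, to 23.4 and 22.96 RPKM without glucose against 0.162 and 2.24 RPKM in complete medium, and EIF3M by 1.60. EIF3D, where the deposited level may include mRNA of the tagged protein, had 147 and 196 RPKM against 317 and 211 RPKM and missed the threshold (log2 difference -0.95 ± 0.331, limma adjusted p = 0.0741). Of the cap-binding complex eIF4F, the scaffold genes EIF4G1 (-1.38) and EIF4G3 (-1.497) were lower and the helicase gene EIF4A2 was higher (1.32). EIF1, the factor that guards start codon choice, had 231 and 313 RPKM against 51.4 and 46.6 RPKM (log2 difference 2.09, limma adjusted p = 0.00717). EIF2AK4, the amino acid sensing kinase GCN2, was lower (-1.02). With length and GC trends removed EIF4G1 (-0.89) and EIF2AK4 (-0.10) no longer passed. None of these eIF calls held without either glucose-free library, and leaving out complete replicate 1 or 2 gave 8 and 9 higher and 2 and 1 lower eIF3 subunits.

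**Figure D4:**
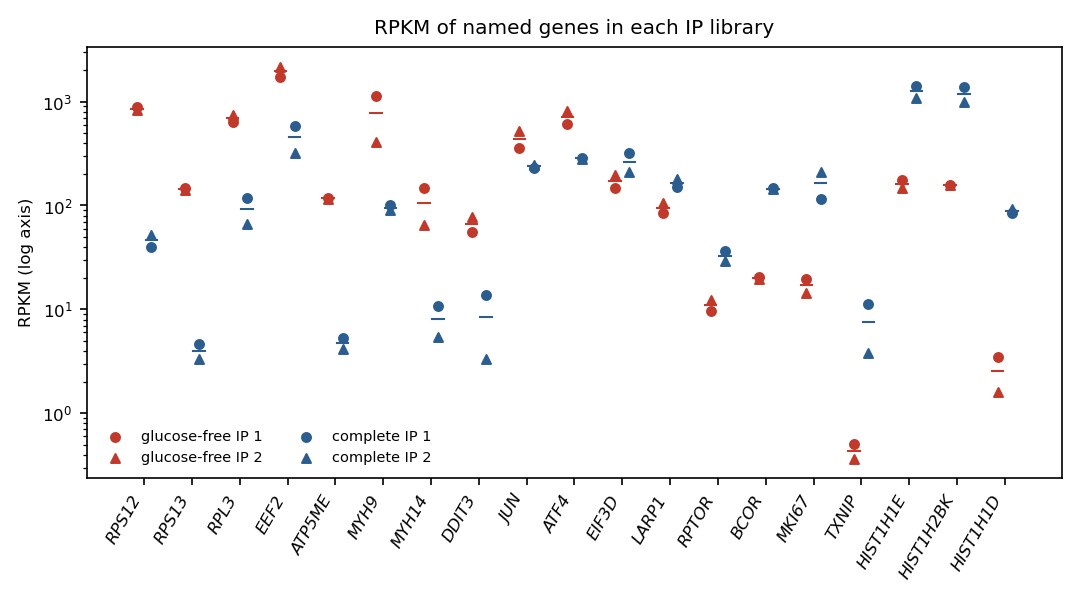
RPKM on a log axis (vertical) of 19 genes in each IP library, glucose-free in red and complete in blue, with circles for replicate 1, triangles for replicate 2 and a short line at the mean of each pair. RPS12 and RPS13 lie more than 10 times higher without glucose, HIST1H1D and HIST1H1E lie lower, and the MYH9 replicates of the glucose-free IP are spread over 410 to 1140 RPKM.

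Genes of sugar metabolism did not move as a class. Glycolysis and the pentose phosphate pathway had 3 of 28 higher and 8 lower (background 18.2% and 16.2%), with a median of 0.06. LDHB and TPI1 rose by 1.74 and 1.48, whereas ALDOA (-1.61) and PFKP (-1.30) fell. GAPDH had 121 and 140 RPKM without glucose and 143 and 120 RPKM in complete medium and did not pass (log2 difference -0.35, limma adjusted p = 0.345). TXNIP, a glucose-induced brake on glucose uptake, had 0.51 and 0.367 RPKM without glucose, against 11.3 and 3.82 RPKM in complete medium (log2 difference -2.62 ± 0.447, limma adjusted p = 0.0127). ARRDC4, its relative and also a target of MondoA, fell by 1.14. In the input TXNIP was lower as well (-0.56), on a low level. The calls of TXNIP, ARRDC4 and the glycolysis list were lost without either glucose-free library, and both TXNIP and ARRDC4 met the minimum of 1 RPKM only through the complete group. Leaving out complete replicate 1 or 2 gave 9 and 8 glycolysis genes higher and 10 and 11 lower.

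Enzymes of the TCA cycle and its entry points had 9 of 34 higher and 4 lower (38.2% called, against 34.4% of all tested genes). MPC2 of the mitochondrial pyruvate carrier stood at 1.90 and ACLY, which makes cytosolic acetyl-CoA, at -1.79. MPC2 met the minimum of 1 RPKM only through the glucose-free group. Cholesterol and fatty acid synthesis had 3 of 32 higher and 3 lower (18.75% called, against 34.4% of all tested genes). PMVK and MVD of the mevalonate pathway rose by 1.76 and 1.64, and ACACA fell by 1.26. With length and GC trends removed ACACA no longer passed (-0.26). ER chaperones and the unfolded protein response had 7 of 30 higher and 3 lower (33.3% called, against 34.4% of all tested genes). SDF2L1 had 242 and 292 RPKM without glucose, against 27.8 and 12.5 RPKM in complete medium (log2 difference 3.42, limma adjusted p = 0.00603), and it passed in all 4 fits that left out a library. Lysosome and autophagy genes had 8 of 44 higher and 3 lower, no more than the 18.2% and 16.2% of all tested genes, with GABARAPL2 at 2.03. Among heat shock chaperones 4 of 31 rose and 3 fell (22.6% called, against 34.4% of all tested genes). HSPE1 of the mitochondrial matrix (3.24) was among the risers, and HSPA1A (-1.96) and its cofactor BAG3 (-1.96) were among those that fell. HSPE1 met the minimum of 1 RPKM only through the glucose-free group. HOX cluster genes had 9 of 31 lower, a larger share than the 16.2% of all tested genes, and 0 higher. ZNF genes had 17 of 215 higher and 35 lower, below the background for higher and close to it for lower. ACTB did not pass (log2 difference -0.58, limma adjusted p = 0.174). In the fits without glucose-free replicate 1 or 2, none of these lists had more than 2 genes called in 1 direction. In those without complete replicate 1 or 2 the TCA list had 15 and 14 higher and 10 and 11 lower, the ER list 17 and 10 higher and 5 and 7 lower, and the lipid list 10 and 6 higher and 10 lower in each. The lysosome list then had 18 and 14 higher and 7 and 9 lower, the chaperones 7 and 14 higher and 14 and 7 lower, the ZNF genes 40 and 47 higher and 96 and 65 lower, and the HOX genes 2 and 0 higher and 21 and 16 lower.

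RNA of the mitochondrial genome was read with caution because complete replicate 2 held most of it. None of 13 mitochondrial mRNAs passed, and their median log2 difference was -1.98, or -3.45 without complete replicate 1 and -0.29 without complete replicate 2. Mitochondrial rRNAs and tRNAs had 7 of 18 lower and 1 higher (background 16.2% and 18.2%). Their median was -2.11, or -2.95 without complete replicate 1 and -1.13 without complete replicate 2. In the input their median was 0.94, with 7 higher and 1 lower (16.6% and 14.5% of all tested genes). MT-TF, a tRNA, had 0 and 3.51 RPKM in the glucose-free IP, against 22.9 and 171 RPKM in complete medium (log2 difference -5.20, limma adjusted p = 0.0207). MTRNR2L8, a nuclear copy of mitochondrial rRNA sequence, had 22.8 and 16.1 RPKM against 62.2 and 567 RPKM, and its reads cannot be told apart from those of the mitochondrial gene.

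Short noncoding genes and copies of small RNAs made the largest differences of all. RNY4, a Y RNA bound by Ro60, had 51.7 and 58.0 RPKM without glucose and 0 in both complete libraries, at least 37.25-fold higher against a floor of 3 reads per library. RNY3 was at least 18.45-fold higher by the same floor, and RNY1 had 32.7 and 56.6 RPKM against 0 and 0.417 RPKM. RNY4, RNY3 and RNY1 met the minimum of 1 RPKM only through the glucose-free group, so they could scarcely have been called lower. In the input RNY4 and RNY1 were also higher (log2 differences 6.61 and 7.40), and their interaction was negative (-3.35 and -3.94), a smaller difference in the IP. BCYRN1, a primate Alu-derived RNA, was lower, at 12.1 and 7.48 RPKM against 25.6 and 75.9 RPKM (log2 difference -2.43). In the input BCYRN1 was lower as well (-3.89), at means of 503 RPKM without glucose and 13831 RPKM in complete medium. Its interaction did not pass. Of 23 genes annotated as rRNA 18 were higher in the IP and 0 lower (background 18.2% and 16.2%). Their median was 4.56, and many of these are copies of 1 sequence. MIR1244-2, a hairpin of 85 bases on chromosome 5, had the largest log2 difference of any tested gene, 8.17, with 1235 and 1430 RPKM against 3.35 and 2.22 RPKM. MIR1244-4 and MIR1244-3 were next, but they are copies of 1 hairpin in the annotation, so their counts are uncertain. The same holds for RPS23P8, a processed copy of a ribosomal protein gene (6.43). MIR1244-4 and MIR1244-3, but not MIR1244-2 or RPS23P8, met the minimum of 1 RPKM only through the glucose-free group. Processed pseudogenes had 338 of 782 higher and 81 lower (background 18.2% and 16.2%). NEAT1, the nuclear scaffold of paraspeckles, was lower, at 1.11 and 1.38 RPKM without glucose and 7.38 and 8.44 RPKM in complete medium (log2 difference -2.24, limma adjusted p = 0.00466).

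The difference between media in the bound pool was set beside that in the input. Across coding genes the difference in the IP correlated with that in the input at r = 0.643 (Spearman's rho 0.599, n = 9576 genes), a description across genes. Of the 2132 genes higher in the IP, 945 were higher in the input as well, 15 were lower and 1172 were not called there. Of the 1899 lower genes, 750 were lower in the input, 23 higher and 1126 not called. The difference in the IP was larger than in the input, in the same direction, for 76 of the higher and 111 of the lower genes by the limma interaction. Ribosomal proteins had an input median of 1.29, with 17 of 81 higher there. The interaction passed for 1 gene in each direction, and the negative member was RPL39. For the chromatin modifiers the input median was -0.62, with 21 lower and 1 higher, and no interaction passed. Mean input levels were low, for EP300 0.453 RPKM without glucose and 3.64 RPKM in complete medium, and for BCOR 0.723 and 9.35 RPKM. The added 1 RPKM shrinks differences at such levels more than in the IP. Input and IP medians of these genes are therefore not on an equal footing, nor are interactions of genes with low input.

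**Figure D5:**
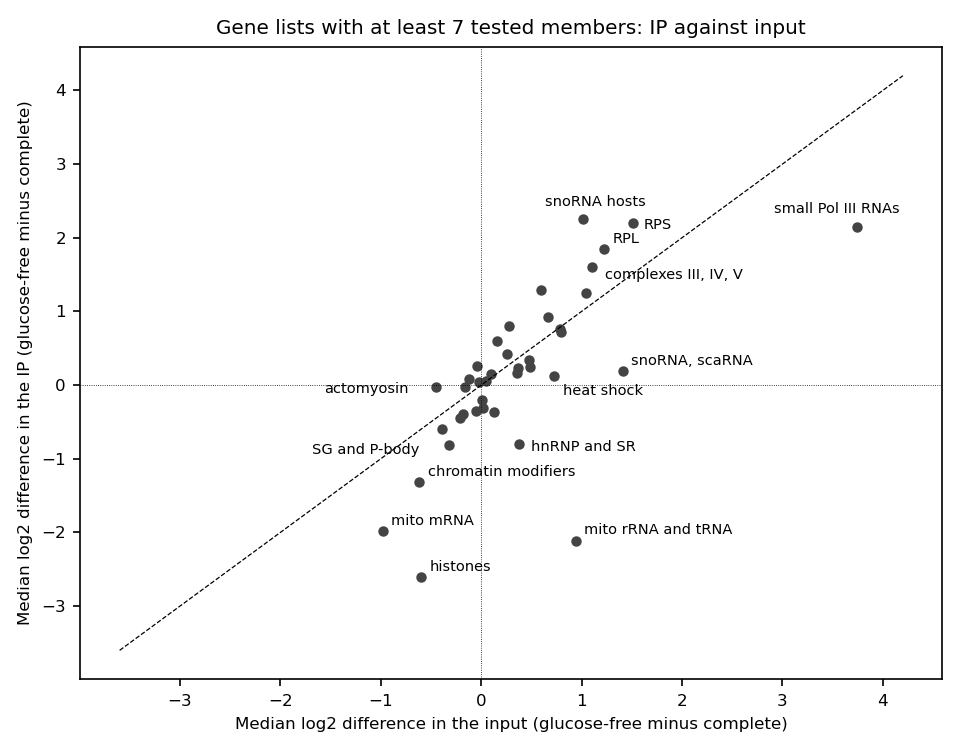
Median log2 difference, glucose-free minus complete, of each gene list with at least 7 tested members in the IP (vertical axis) against the input (horizontal axis), with the line of equality dashed. Ribosomal proteins (RPL and RPS) lie at 1.85 and 2.20 in the IP with input medians above 1, histones lie at -2.60 in the IP and -0.60 in the input, and the small Pol III RNAs lie below the line. The RPKM + 1 scale shrinks differences of genes with low levels, such as the chromatin modifiers in the input, so distance from the line also depends on level.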

How the data were processed

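Expression was deposited by the authors as RPKM per gene in 2 tables, 1 per medium, joined here on gene identifier. The submitters' processing notes name the tools cutadapt, HISAT2 and SAMtools and the build GRCh38. Their versions, the counter, the annotation, strand use and the handling of multiply placed reads are not given in the sources, so antisense and overlapping genes cannot be told apart. With GENCODE 29 exon lengths, 97.9% to 98.01% of the low IP values (up to 50 reads) came out as whole reads within 0.02, which gave the depths. Intervals and floors of 3 reads cover counting error only.

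Each IP library was scaled to the geometric mean of the 4 library medians over tested genes (medians 4.43 and 5.16 RPKM without glucose, 3.85 and 3.65 RPKM in complete medium). Then log2(RPKM + 1), which understates differences of low genes, was fitted with limma 3.58.1 in R 4.3.3 with an intensity trend, without a replicate block, at a Benjamini-Hochberg adjusted p under 0.05. Inputs were fitted in the same way over the 4 input libraries, and the interaction of medium with IP over all 8 libraries. Each fit was scaled to the medians of its own libraries, so an interaction is not the plain difference of the printed IP and input values. On simulated reads with 200 genes changed, the IP fit recovered 0% of 2-fold, 0% of 4-fold and 88% of 8-fold differences and called at most 3 unchanged genes, with simulated dispersions of 0.00999 without glucose and 0.135 in complete medium. Benjamini-Hochberg adjustment is stricter with so few changed genes than in the real libraries, where 5719 genes had an unadjusted p under 0.05, so these recovery rates apply to the simulation only. Summaries used Python 3.11.15. Sequences are from RefSeq on GRCh38.p14.

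Named genes were the 10 coding genes with the largest difference each way among those called, with 1 sign in all fits that left out a library and no overlap. To these were added the 4 leading noncoding or mitochondrial genes each way, the 8 most abundant coding genes per medium, up to 2 called members each way per gene list, and 12 further genes. Members named for context outside this rule were chosen after their values were seen. The members, lists and tests were chosen with earlier results of these data known.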

Additional observations from a re-analysis of the deposited data

How the results depend on the processing

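The 2132 higher and 1899 lower genes became 3251 and 1318 with RPKM as deposited, 1200 and 1134 with a mean of at least 5 RPKM, where 5558 genes were tested, and 812 and 508 with no filter, where 38452 were. Leaving out a library gave 328 to 3960 higher and 38 to 3821 lower. The other scalings, pseudocounts, filter, 8-library fit, voom on recovered reads, removal of length and GC trends and library weights (chosen after seeing the data) stayed within 1.5 times. The replicate block gave 2205 and 2001, and with length and GC removed 2651 and 2140. In the labels, same-numbered libraries share only a number. Their deviations correlated at -0.085 between the glucose-free and complete IPs, which cannot show whether they were prepared together. No call had the opposite direction under any of these settings, apart from 1 gene with length and GC trends removed. For 151 named genes, 2471 comparisons kept direction and side of the threshold, 346 lost and 26 gained the call, and none reversed. Medians of 42 lists moved by less than the spread between replicates in 697 comparisons and by more in 101. Among the 21 with a median of at least 0.5 in size, 1 changed sign, the integrated stress response list (-0.07 without complete replicate 2). As shares of recovered reads, the glucose-free and complete means were 61.2% and 54.4% for nuclear coding genes (24.5% and 17.8% by RPKM), 34.7% and 34.9% for the rRNA region (66.9% and 64.4%) and 3.07% and 2.28% for other noncoding genes (7.10% and 4.46%). The glucose-free means were 0.506% for mitochondrial rRNA and 0.507% for mitochondrial mRNA (0.673% and 0.860%). Without rRNA in the total, coding genes took 75.4% and 67.5%, mitochondrial mRNA 2.66% and 15.8%, and other noncoding genes 21.9% and 16.8%. Genes holding 50% of the pool averaged 3.5 in both media, 608.5 and 768 over coding genes only, and 158.5 and 55.5 over recovered reads. Counts of genes without overlap after scaling, chosen after seeing the data, were 4381 above and 4290 below, against 5420 and 3066 as deposited. For these shifts the cause was not tested, beyond the length that RPKM divides by. Depth was lowest without glucose, where 3 reads equal up to 0.347 RPM (RPKM before division by length).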
